A study of Mus musculus with 12 samples.

Results

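Glucose uptake and glycolysis genes of the liver were followed across fasting and an acute p53 deletion. The set comprises 8 genes, Slc2a2, Gckr, Pfkl, Pfkfb1, Khk, Tpi1, Pklr and Mlxipl, and each gene was read from a probe set that the platform annotation assigns to that gene alone. Of the 8 genes, 7 had such a probe set, 1 each, among the 22180 genes measured; Pfkfb1 had none and was not analysed here.

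The 12 livers came from male p53 fl/fl mice (Trp53tm1Brn, strain given as C57Bl/6N), 2 months old, 3 mice in each of 4 groups. The groups were Adeno-Cre fasted, Adeno-Cre fed, Adeno-GFP fasted and Adeno-GFP fed. Adeno-Cre is an adenovirus that expresses Cre recombinase, which cuts out the floxed part of p53, and Adeno-GFP is the same kind of virus with a fluorescent protein in place of Cre. Equal titers were injected into the tail vein, and 3 days later mice were either fasted for 24 h or had chow freely available. Every group therefore carried the floxed alleles and received an adenovirus, and no liver without virus is among the samples. Nothing in the labels limits Cre to hepatocytes or gives the share of cells reached, and Trp53 itself was not analysed here, so the deletion was not checked.

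Whole liver RNA was measured on Affymetrix arrays. All values are log2 expression levels as deposited, so that a difference of 1 is a doubling. Array medians lay between 6.26 and 6.33. The 9 hepatocyte markers checked, such as albumin (Alb) and transthyretin (Ttr), all stood above these medians, and their mean was 12.23 to 12.26 in Adeno-Cre fasted, 12.05 to 12.22 in Adeno-Cre fed, 12.35 to 12.41 in Adeno-GFP fasted and 12.24 to 12.27 in Adeno-GFP fed livers. The 6 neutrophil markers all stood below the lowest array median in every group. In whole tissue, fewer cells of a type and less RNA per cell cannot be told apart. The mean of 9 cell cycle genes was 8.69 to 9.16 in Adeno-Cre fasted and 9.21 to 9.30 in Adeno-Cre fed livers, against 6.40 to 7.42 in Adeno-GFP fasted and 7.53 to 8.29 in Adeno-GFP fed livers. The mean of 8 interferon response genes was 8.32 to 9.45 in Adeno-Cre fed livers, and lay between 7.25 and 7.75 in the other 3 groups. The part of these differences in the results below was not tested.

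Glucose enters hepatocytes through GLUT2 (Slc2a2), a transporter of high capacity that lets glucose pass in both directions. GKRP (Gckr) is a regulatory protein of hepatic glucose use that responds to fructose phosphates. Phosphofructokinase (Pfkl) commits the sugar to glycolysis, triosephosphate isomerase (Tpi1) interconverts the triose phosphates in both glycolysis and gluconeogenesis, and pyruvate kinase (Pklr) makes pyruvate. Fructose joins through ketohexokinase (Khk). ChREBP (Mlxipl) is a transcription factor activated by sugar phosphates that binds carbohydrate response elements, which are pairs of E-boxes set a few bases apart, and Pklr is its classical target. In the fasted liver glycolysis gives way to glucose release, while several reversible enzymes serve both directions.

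Promoter windows of 4 genes are shown because these genes passed the test with fasting below and differ in the E-box letters they hold. The sequences are RefSeq windows of build GRCm38.p6, 250 bases before to 50 after an annotated start, written 5′ to 3′ in the gene's direction. Capitals mark a paired E-box like a carbohydrate response element, which is CACGNG and then CNCGTG with 5 bases between them, or the single E-box CACGTG. Both patterns read the same on the other strand, and the paired one may contain CACGTG, which in Pklr it does not.
Pklr: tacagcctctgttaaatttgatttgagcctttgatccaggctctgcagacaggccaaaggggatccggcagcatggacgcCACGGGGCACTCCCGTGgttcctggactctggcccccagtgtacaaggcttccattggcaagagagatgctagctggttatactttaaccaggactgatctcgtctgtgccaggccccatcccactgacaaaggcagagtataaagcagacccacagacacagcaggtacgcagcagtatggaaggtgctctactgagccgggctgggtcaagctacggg
Khk: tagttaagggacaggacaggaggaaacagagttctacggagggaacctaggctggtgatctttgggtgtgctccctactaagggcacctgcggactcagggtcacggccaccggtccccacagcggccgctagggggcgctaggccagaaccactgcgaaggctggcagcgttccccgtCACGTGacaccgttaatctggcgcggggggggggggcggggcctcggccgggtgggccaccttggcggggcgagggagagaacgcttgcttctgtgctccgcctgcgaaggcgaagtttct
Mlxipl: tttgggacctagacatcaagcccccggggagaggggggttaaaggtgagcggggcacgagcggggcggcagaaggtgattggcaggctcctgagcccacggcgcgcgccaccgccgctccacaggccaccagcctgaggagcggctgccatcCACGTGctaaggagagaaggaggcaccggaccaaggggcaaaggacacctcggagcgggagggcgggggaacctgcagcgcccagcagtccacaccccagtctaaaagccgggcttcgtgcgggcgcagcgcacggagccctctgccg
Tpi1: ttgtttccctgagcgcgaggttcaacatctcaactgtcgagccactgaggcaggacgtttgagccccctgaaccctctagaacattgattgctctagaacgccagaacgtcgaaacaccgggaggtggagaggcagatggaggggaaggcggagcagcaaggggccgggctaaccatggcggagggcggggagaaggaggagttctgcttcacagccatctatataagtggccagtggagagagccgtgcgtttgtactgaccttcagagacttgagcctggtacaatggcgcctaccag

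The Pklr window lies at chr3:89136373-89136672 on the plus strand, at the downstream of 2 annotated starts, the one known for the liver form of the enzyme, and holds the paired motif CACGGGGCACTCCCGTG from position -170 relative to the start. The other Pklr window, chr3:89135892-89136191, held neither motif. The Khk window, chr5:30921309-30921608 on the plus strand, has a CACGTG at -71. The Mlxipl window, chr5:135089640-135089939 on the plus strand, has a CACGTG at -98. It belongs to the upstream of 2 starts, known for the shorter ChREBP-beta form, and the starts lie 17001 bases apart, and the window of the downstream start, chr5:135106641-135106940, held neither motif. The Tpi1 window, chr6:124814109-124814408 on the minus strand, held neither, and nor did the windows of Slc2a2, Gckr, Pfkl and Pfkfb1. Among all 32851 promoter windows of this length, 7.15% hold CACGTG and 0.0457%, which is 15 windows, hold the paired motif. A match describes letters in a window and does not show that a factor binds there.

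Fasting lowered the liver pyruvate kinase gene after both injections, lowered Khk and Mlxipl on average over both injections, and raised Tpi1. Averaged over the injections, Pklr fell by 0.98 on the log2 scale (SE 0.08), to 0.507 of the fed level. Khk fell by 0.46 (SE 0.09) and Mlxipl by 0.39 (SE 0.07), while Tpi1 rose by 0.35 (SE 0.06). The Benjamini-Hochberg adjusted p over all genes was 2e-05 for Pklr, 0.00696 for Khk, 0.00355 for Mlxipl and 0.0031 for Tpi1. Thus 3 of 7 genes fell and 1 rose, where 4.32% of all genes fell and 4.02% rose, 8.34% in all. The median change of the 7 genes was -0.22, against 0.01 over all genes. Each of these 4 calls also passed without any one of the 12 livers. The mean of 8 periportal hepatocyte markers moved with fasting too, at 10.64 to 10.755 in fasted and 10.04 to 10.44 in fed livers after Adeno-Cre, and at 10.765 to 10.87 in fasted and 10.44 to 10.57 in fed livers after Adeno-GFP (4 of 8 rose and 0 fell on average). The mean of 12 pericentral markers was 9.50 to 9.52 in fasted and 9.53 to 9.61 in fed livers after Adeno-Cre, and 9.72 to 9.80 in fasted and 9.86 to 9.91 in fed livers after Adeno-GFP (1 of 12 rose and 2 fell). The mean of 10 stellate cell markers was 8.13 to 8.33 in fasted and 8.37 to 8.53 in fed livers after Adeno-Cre, and 8.44 to 8.55 in fasted and 8.64 to 8.70 in fed livers after Adeno-GFP (0 of 10 rose and 3 fell). The part of these marker levels in the fasting changes was not tested.

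**Figure D1:**
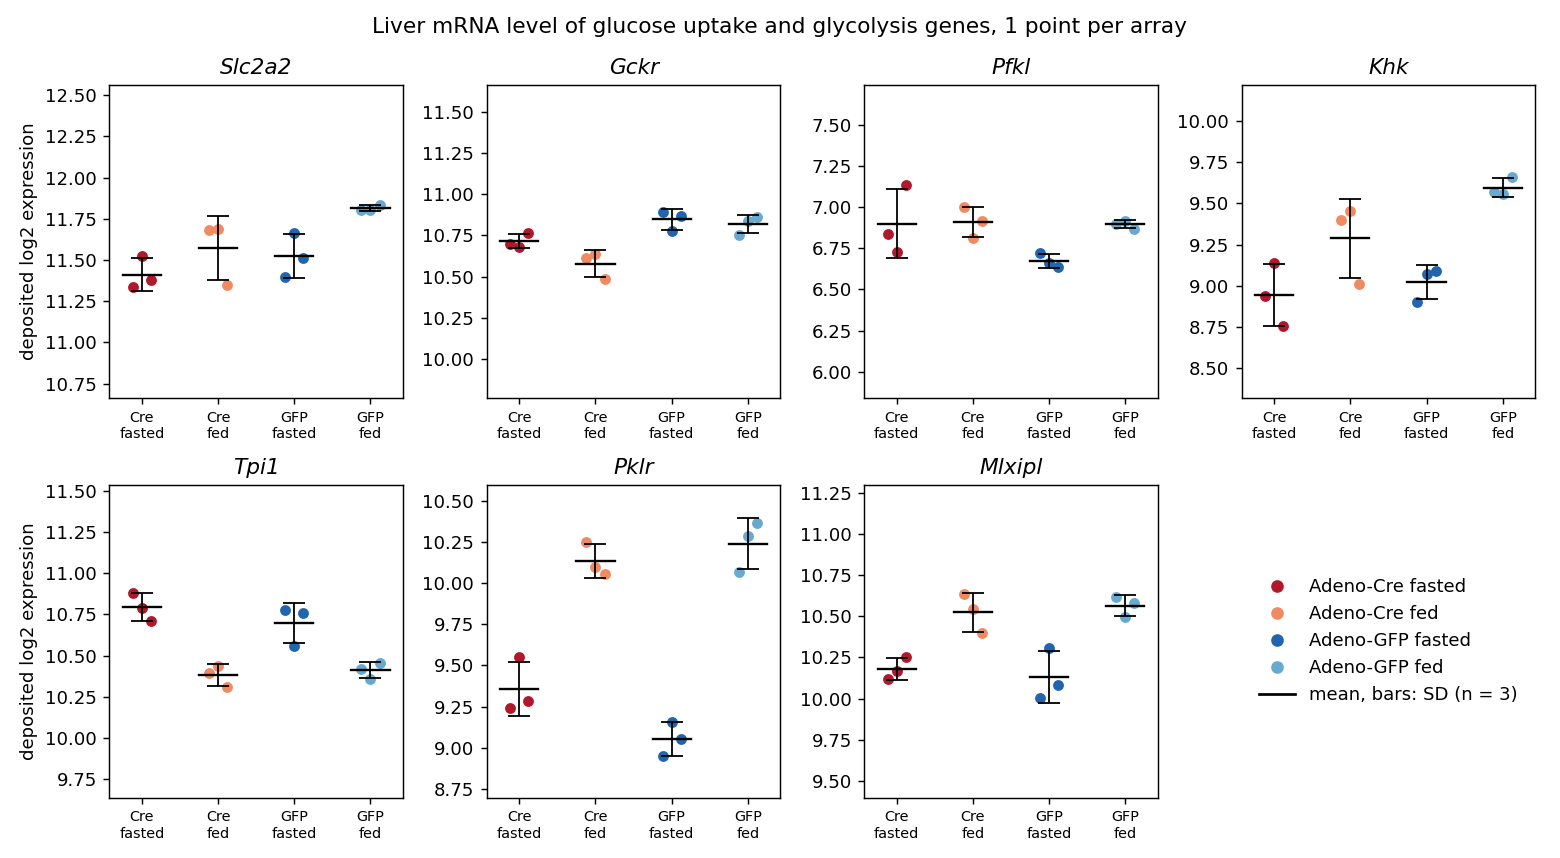
Deposited log2 expression of the 7 measured genes in each liver, one panel per gene, with Adeno-Cre fasted, Adeno-Cre fed, Adeno-GFP fasted and Adeno-GFP fed from left to right; points are single livers and bars are the mean and SD (n = 3). Every panel spans the same width on the log2 axis, and the fasted points of Pklr lie below all fed points after either injection, from 8.95 to 9.55 against 10.06 to 10.37.

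Pklr carried the largest fasting change among the 7 genes. In Adeno-Cre livers it stood at 9.24, 9.55 and 9.28 fasted and at 10.25, 10.10 and 10.06 fed. In Adeno-GFP livers it stood at 8.95, 9.16 and 9.05 fasted and at 10.07, 10.28 and 10.37 fed. All 6 fasted livers were below all 6 fed livers. The change was -0.78 after Adeno-Cre (SE 0.11, 95% interval -1.01 to -0.54, adjusted p = 0.00389) and -1.19 after Adeno-GFP (SE 0.11, 95% interval -1.42 to -0.95, adjusted p = 0.00015). The fasted level was thus 0.584 of the fed level after Adeno-Cre and 0.44 of it after Adeno-GFP. Ordered by p among all 22180 genes, Pklr was at place 51 after Adeno-Cre and at place 15 after Adeno-GFP.

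Khk, which phosphorylates fructose and has an E-box in the window shown above, was at 8.94, 9.14 and 8.76 in Adeno-Cre fasted livers and at 9.40, 9.45 and 9.01 in Adeno-Cre fed livers. It was at 8.90, 9.07 and 9.09 in Adeno-GFP fasted livers and at 9.57, 9.55 and 9.66 in Adeno-GFP fed livers. The groups overlapped after Adeno-Cre, where fed replicate 3 was below fasted replicate 2, and did not overlap after Adeno-GFP. The change was -0.35 after Adeno-Cre (SE 0.12, adjusted p = 0.183) and -0.57 after Adeno-GFP (SE 0.12, adjusted p = 0.0282). The call after Adeno-GFP was lost without any one of the 6 Adeno-GFP livers (adjusted p 0.0615 to 0.101), whereas the averaged call passed without each of the 12 livers.

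Mlxipl, the gene of ChREBP, was at 10.12, 10.17 and 10.25 in Adeno-Cre fasted livers and at 10.63, 10.54 and 10.40 in Adeno-Cre fed livers. It was at 10.01, 10.31 and 10.08 in Adeno-GFP fasted livers and at 10.62, 10.49 and 10.58 in Adeno-GFP fed livers. Fasted livers were below fed livers after both injections, and within each diet the Adeno-Cre and Adeno-GFP livers overlapped. The change was -0.35 after Adeno-Cre (SE 0.09, adjusted p = 0.0776) and -0.43 after Adeno-GFP (SE 0.09, adjusted p = 0.0284). The call after Adeno-GFP was lost without Adeno-GFP fasted replicate 1 or 3 or any Adeno-GFP fed replicate (adjusted p 0.068 to 0.103), and the averaged call passed without each of the 12 livers. Which of the transcripts from the 2 starts the probe set reads is not given in the sources used here.

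Tpi1 moved the other way. It was at 10.88, 10.79 and 10.71 in Adeno-Cre fasted livers and at 10.40, 10.44 and 10.31 in Adeno-Cre fed livers. It was at 10.77, 10.56 and 10.76 in Adeno-GFP fasted livers and at 10.42, 10.36 and 10.46 in Adeno-GFP fed livers. All 6 fasted livers were above all 6 fed livers. The change was 0.41 after Adeno-Cre (SE 0.08, 1.33-fold, adjusted p = 0.0225) and 0.29 after Adeno-GFP (SE 0.08, 1.22-fold, adjusted p = 0.0895). The call after Adeno-Cre was lost without Adeno-Cre fasted replicate 1 or 2 or Adeno-Cre fed replicate 1 or 3 (adjusted p 0.0693 to 0.0953), and the averaged call passed without each of the 12 livers.

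Slc2a2, the GLUT2 gene, was at 11.34, 11.52 and 11.38 in Adeno-Cre fasted livers and at 11.68, 11.69 and 11.35 in Adeno-Cre fed livers. It was at 11.40, 11.66 and 11.51 in Adeno-GFP fasted livers and at 11.80, 11.80 and 11.83 in Adeno-GFP fed livers. The groups overlapped after Adeno-Cre through fed replicate 3 and were apart after Adeno-GFP, where the 3 fed livers were nearly equal. The averaged change was -0.22 (SE 0.07, 95% interval -0.38 to -0.06, adjusted p = 0.0863). Across the 12 fits that each left out 1 liver the adjusted p was 0.0264 to 0.184, and 1 of 12 passed. The fit that passed, with a change of -0.28, was the one without Adeno-Cre fed replicate 3.

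That liver was the lowest of its group in 6 of the 7 genes. Its mean over the hepatocyte markers, 12.05, and over 8 periportal markers, 10.04, were the lowest of all 12 livers, against 12.20 to 12.22 and 10.41 to 10.44 in the other Adeno-Cre fed livers. The markers of each list were not alike in this liver. The hepatocyte marker Tat was at 11.03, against 11.95 and 12.22 in the others, whereas Alb was at 13.30 in each. Among periportal markers, Pck1 was at 11.54, against 12.31 and 12.17, whereas Hsd17b13 was at 12.72, against 12.73 and 12.73. The part of these marker levels in its values was not tested.

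Gckr and Pfkl did not pass the test with fasting. Gckr was at 10.70, 10.68 and 10.76 in Adeno-Cre fasted and 10.61, 10.64 and 10.49 in Adeno-Cre fed livers, and at 10.89, 10.78 and 10.87 in Adeno-GFP fasted and 10.76, 10.84 and 10.86 in Adeno-GFP fed livers. Its averaged fasting change was 0.08 (SE 0.05, 95% interval -0.03 to 0.19, adjusted p = 0.407). Pfkl, the committed step, was at 6.84, 6.73 and 7.13 in Adeno-Cre fasted and 7.00, 6.81 and 6.91 in Adeno-Cre fed livers, and at 6.72, 6.66 and 6.64 in Adeno-GFP fasted and 6.90, 6.92 and 6.87 in Adeno-GFP fed livers. Its averaged change was -0.12 (SE 0.07, 95% interval -0.27 to 0.03, adjusted p = 0.378). The fasted and fed livers overlapped after Adeno-Cre for Pfkl and did not after Adeno-GFP. Its levels lay not far above the array medians, and differences of dim probe sets can be compressed in the deposited values. Whether this affected Pfkl was not tested.

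Taken by injection, 1 of 7 genes fell (Pklr) and 1 rose (Tpi1) after Adeno-Cre, where 1.17% of all genes fell and 1.5% rose, 2.67% in all. After Adeno-GFP 3 fell (Pklr, Khk and Mlxipl) and 0 rose, where 1.87% of all genes fell and 1.2% rose, 3.07% in all. After Adeno-Cre 2 genes were lower and 2 higher in every fasted than in every fed liver, as were 9.81% and 11.3% of all genes. After Adeno-GFP 5 were lower and 1 higher, as were 11.1% and 11.1% of all genes. The median change of the 7 genes was -0.16 after Adeno-Cre and -0.29 after Adeno-GFP. These contrasts share no arrays, and the sign of the fasting change was the same after both for 7 of 7 genes and for 60.6% of all genes. Of these signs, those of Pfkl after Adeno-Cre (-0.01) and Gckr after Adeno-GFP (0.03) rest on very small changes. Leaving out single arrays turned both, with ranges of -0.127 to 0.0755 for Pfkl and -0.0041 to 0.063 for Gckr.

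**Figure D2:**
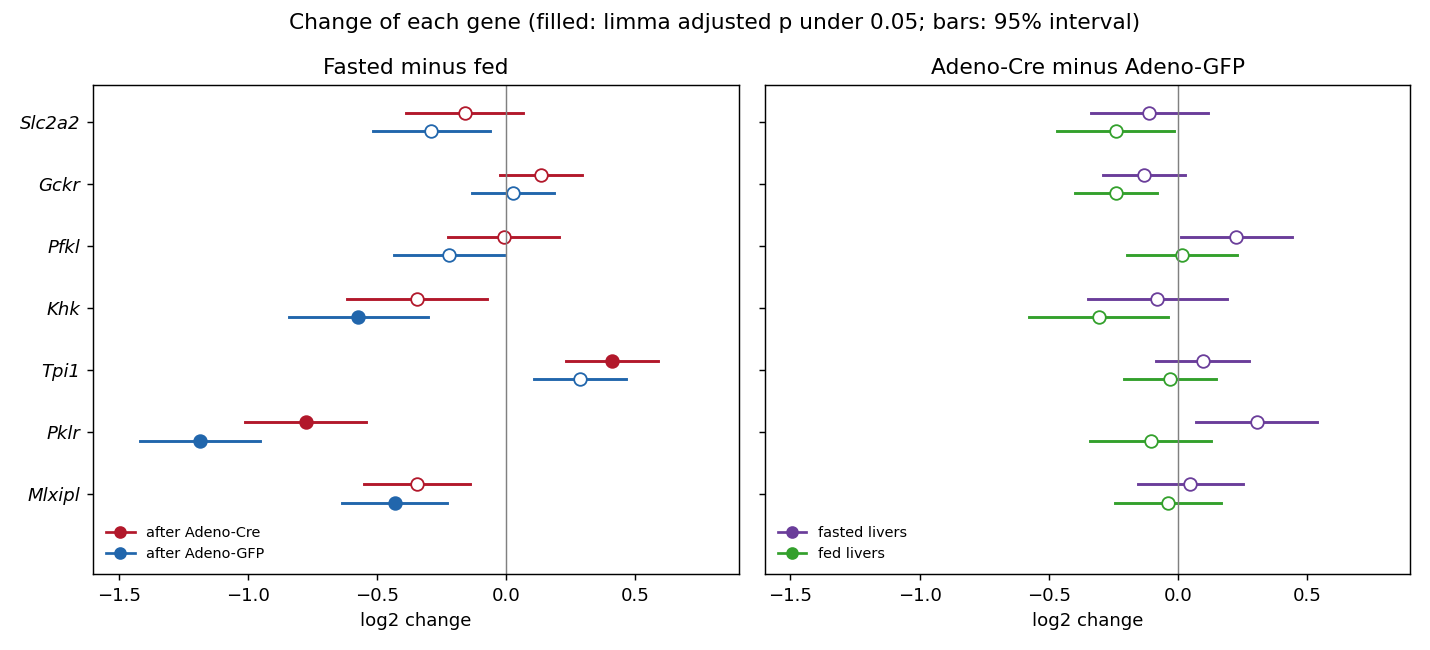
Log2 changes of the 7 genes with their 95% intervals for fasting (fasted minus fed, left) and for the injection (Adeno-Cre minus Adeno-GFP, right), each from the fit of all 12 livers; filled points have an adjusted p below 0.05. Pklr lies at -0.78 after Adeno-Cre and -1.19 after Adeno-GFP, and no point of the injection panel is filled.

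The rest of the pathway was read from lists that were chosen with earlier results of these data known. For the counts with averaged fasting in this and the next lists, 4.02% of all genes rose and 4.32% fell. Among 14 measured enzymes below hexokinase, 2 rose with fasting averaged over the injections, Tpi1 and the enolase gene Eno3, and 2 fell, Pklr and the aldolase gene Aldoc. The median change of this list was 0.00 and that of all genes 0.01. Gapdh, the enzyme after Tpi1, had a difference of 0.05 after Adeno-Cre and -0.04 after Adeno-GFP, and Ldha, which makes lactate from pyruvate, differences of 0.18 and 0.13, all short of the threshold. Of 14 genes of glucose entry and trapping, 2 rose, the transporters Slc2a1 (0.33, SE 0.08) and Slc2a3, whose mean of 5.53 lay below the array medians, and 0 fell, with a list median of 0.04. Of 3 genes of fructose breakdown, 2 fell, Khk and the triokinase gene Tkfc (-0.42, SE 0.11).

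Fructose 2,6-bisphosphate, the activator of phosphofructokinase, is made and removed by enzymes of the Pfkfb family. Among the 4 measured genes of its control, Pfkfb2 rose by 0.51 (SE 0.08) and Pfkfb3 fell by 0.73. Tigar, a p53 target in human cells that breaks this activator down, had a fasting difference of -0.04 after Adeno-Cre and -0.10 after Adeno-GFP, and the Adeno-Cre minus Adeno-GFP difference was 0.10 fasted and 0.04 fed. None of the Tigar differences passed the test.

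The following counts can be read against the 4.02% of all genes that rose and 4.32% that fell with averaged fasting. Genes that decide what becomes of pyruvate moved in both directions. Of 19 measured, 4 rose with averaged fasting and 2 fell, with a list median of 0.04. Pdk4, a kinase that shuts down pyruvate dehydrogenase, rose by 1.17 (SE 0.17, adjusted p = 0.00139), and Pcx, the pyruvate carboxylase that starts gluconeogenesis, rose by 0.37. Pdhb, a subunit of pyruvate dehydrogenase, fell by 0.30. Of 7 gluconeogenic counterparts 2 rose, Pcx and Fbp2, with a list median of 0.23. Fbp2 was dim, with a mean of 6.63. The brighter Fbp1 averaged 11.69 fasted and 11.70 fed after Adeno-Cre, and 11.84 and 11.86 after Adeno-GFP. G6pc averaged 11.34 fasted and 11.44 fed after Adeno-Cre, and 11.60 and 11.84 after Adeno-GFP. Neither Fbp1 nor G6pc passed the test. Pck1, which commits oxaloacetate to gluconeogenesis, had a difference of 0.35 after Adeno-Cre and 0.39 after Adeno-GFP and did not pass the test. Among 17 regulators 3 rose and 1 fell. Ppargc1a, a coactivator of the fasting response, rose by 0.79 (SE 0.12), Hnf4a by 0.42 and Thra also rose. Srebf1, the SREBP-1 gene, fell by 0.63 on average (SE 0.07), with a change of -0.24 after Adeno-Cre that did not pass the test (adjusted p = 0.258) and one of -1.01 after Adeno-GFP that did (adjusted p = 0.000335). The averaged calls of Pfkfb2, Pdk4, Pcx, Pdhb, Ppargc1a, Hnf4a and Srebf1 passed without each of the 12 livers. Those of Slc2a1, Slc2a3, Eno3, Aldoc, Tkfc, Pfkfb3, Fbp2 and Thra did not: each was lost without any one of 3 (Slc2a1) to 10 (Slc2a3) of the livers, with adjusted p up to 0.0889, and these livers came from all 4 groups. With the mean of its probe sets in place of the brightest one, Slc2a1 had an adjusted p of 0.117.

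Of 18 measured genes listed as ChREBP targets, which include Pklr, Khk and Slc2a2, 10 fell with averaged fasting and 0 rose, where 4.32% of all genes fell. The list's median change was -0.44. Fasn, the fatty acid synthase gene, fell by 1.20 (SE 0.11), Scd1, the stearoyl-CoA desaturase gene, by 0.94 (SE 0.09), and Me1, the malic enzyme gene, by 0.93 (SE 0.07). Txnip, another listed target, had a change of 0.57 (SE 0.18, adjusted p = 0.0782), which did not pass the test. By injection, 6 of 18 fell after Adeno-Cre and 9 of 18 after Adeno-GFP, where 1.17% and 1.87% of all genes fell. The list medians were -0.30 and -0.58. The lipid synthesis genes of the list are also known as SREBP-1 targets.

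**Figure D3:**
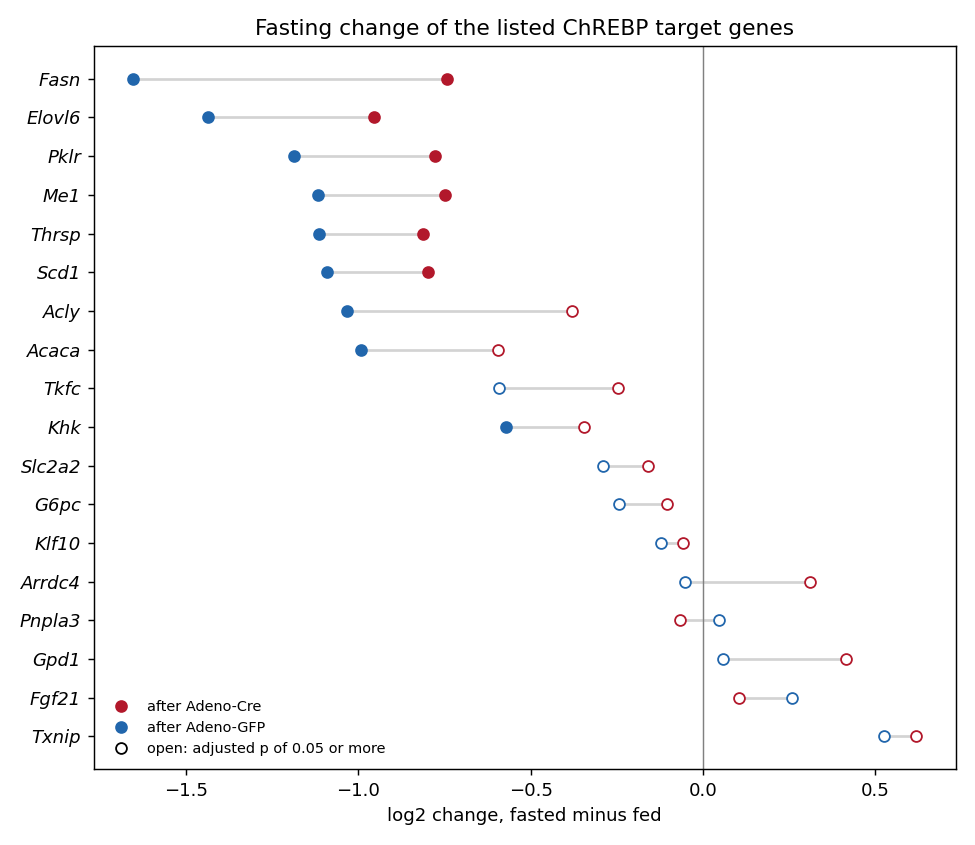
Fasting change (fasted minus fed, log2) of the 18 measured genes listed as ChREBP targets, one row per gene, after Adeno-Cre in red and after Adeno-GFP in blue; filled points have an adjusted p below 0.05. Pklr lies at -0.78 and -1.19 and Fasn at -0.74 and -1.65, and Txnip lies right of 0 after both injections.

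Adeno-Cre was set against Adeno-GFP within each diet to ask what the injection that deletes p53 changed. In fasted livers 0 of the 7 genes passed the test, where 2.75% of all genes did (2.26% higher and 0.482% lower). In fed livers 0 passed, where 1.49% of all genes did (1.08% higher and 0.415% lower). Averaged over the diets 0 passed, where 5.59% of all genes did (3.55% higher and 2.03% lower). At an unadjusted p under 0.05, limma gave 2, 3 and 3 of the 7 genes and 3711, 2742 and 4333 of all genes.

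Gckr came closest. Its values above were lower in every Adeno-Cre than in every Adeno-GFP liver within both diets. The difference was -0.13 in fasted livers (SE 0.07, adjusted p = 0.391), -0.24 in fed livers (SE 0.07, adjusted p = 0.158) and -0.19 averaged (SE 0.05, 95% interval -0.30 to -0.07, adjusted p = 0.0572). With dim probe sets left out the averaged adjusted p was 0.0203, and with a trended and robust variance prior it was 0.0094. Only these 2 of 7 alternative settings passed, and the adjusted p reached 0.102 in the others. Without each array in turn it was 0.0553 to 0.134, and 0 of 12 such fits passed. Marker lists differed between the injections too. Averaged over the diets, 10 of 12 pericentral markers fell with Adeno-Cre and 0 rose, and their means, given above for each group, did not overlap between the injections in either diet. Of 10 stellate cell markers 4 fell and 0 rose, and of 8 interferon response genes 3 rose and 0 fell. By diet, 6 of these 8 interferon genes rose in fed and 0 in fasted livers. Of 9 cell cycle genes 9 rose on average, and of 8 periportal markers 2 rose and 2 fell. Averaged over the diets, 3.55% of all genes rose and 2.03% fell. The hepatocyte means given above were also lower in every Adeno-Cre than in every Adeno-GFP liver within each diet, although 0 of those 9 markers passed the test. The part of these levels in the Gckr difference was not tested.

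In fasted livers Pklr was higher in every Adeno-Cre than in every Adeno-GFP liver, by 0.30 (95% interval 0.07 to 0.54, adjusted p = 0.172), and so was Pfkl, by 0.23 (95% interval 0.01 to 0.44, adjusted p = 0.27). Of the 7 genes, 2 were thus higher and 1 lower without overlap, as were 9.96% and 10.9% of all genes. In fed livers Khk was lower by 0.31 (95% interval -0.58 to -0.04, adjusted p = 0.321) and Slc2a2 by 0.24 (95% interval -0.47 to -0.01, adjusted p = 0.36). With Gckr, 3 of 7 genes were lower there without overlap, against 11.5% of all genes, and 0 higher, against 8.4%. Without Adeno-Cre fed replicate 3 the fed differences were -0.17 for Khk and -0.13 for Slc2a2. Mlxipl and Tpi1 differed by 0.05 and 0.10 in fasted and by -0.04 and -0.03 in fed livers. The averaged interval was -0.14 to 0.15 for Mlxipl and -0.09 to 0.16 for Tpi1.

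In the other lists, leaving the 7 genes aside, 1 of 85 rose and 1 fell with Adeno-Cre in fasted livers, where 2.26% of all genes rose and 0.482% fell. In fed livers 0 rose and 2 fell, where 1.08% of all genes rose and 0.415% fell. Averaged over the diets 3 rose and 6 fell, where 3.55% of all genes rose and 2.03% fell. Slc37a4, which carries glucose 6-phosphate into the endoplasmic reticulum for glucose release, fell by 0.46 on average, and Me1 rose by 0.38. The aldolase gene Aldoc, an enzyme of the glycolysis list, fell by 0.49 on average (limma adjusted p = 0.00966). The other averaged calls were Pck2 and Slc16a1, which rose, and Insr, Pdha1, Pdk1 and Slc2a3, which fell. Srebf1 fell by 0.53 in fed livers (SE 0.10, adjusted p = 0.0273) and had a difference of 0.25 in fasted livers that did not pass the test. The fed call was lost without any one Adeno-Cre fed liver or Adeno-GFP fed replicate 2 or 3 (adjusted p up to 0.118). The averaged calls of Slc37a4, Me1 and Aldoc passed without each of the 12 livers. Each of the other averaged calls was lost without any one of 4 (Pck2) to 11 (Slc16a1) of the livers.

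Whether fasting acted differently after the injections was tested as an interaction, the fasting change after Adeno-Cre minus that after Adeno-GFP. None of the 7 genes passed, and 1 of 22180 genes did (0.00451%). At an unadjusted p under 0.05 limma gave 1 of the 7 genes and 1676 of all genes. Pklr had an interaction of 0.41 (SE 0.15, 95% interval 0.08 to 0.74, unadjusted p = 0.0189, adjusted p = 0.614), so its smaller fall after Adeno-Cre is not shown to differ from that after Adeno-GFP. All 7 values were above 0, from 0.09 for Mlxipl to 0.41, as were 16 of the 18 listed ChREBP targets and 49.9% of all genes. These genes were measured in the same livers and are not independent of each other.

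Some of the 7 genes also varied together within groups. After subtracting group means, Slc2a2 and Khk had a Pearson correlation of 0.859 over the 12 livers, Slc2a2 and Mlxipl one of 0.762, and Pklr and Mlxipl one of 0.363. Without Adeno-Cre fed replicate 3 these values were 0.688, 0.674 and 0.282 over 11 livers. Other pairs went in opposite directions over the 12 livers, among them Pfkl and Khk (-0.615) and Tpi1 and Mlxipl (-0.443). They are given as a description of livers whose genes share an array, with no test.

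**Figure D4:**
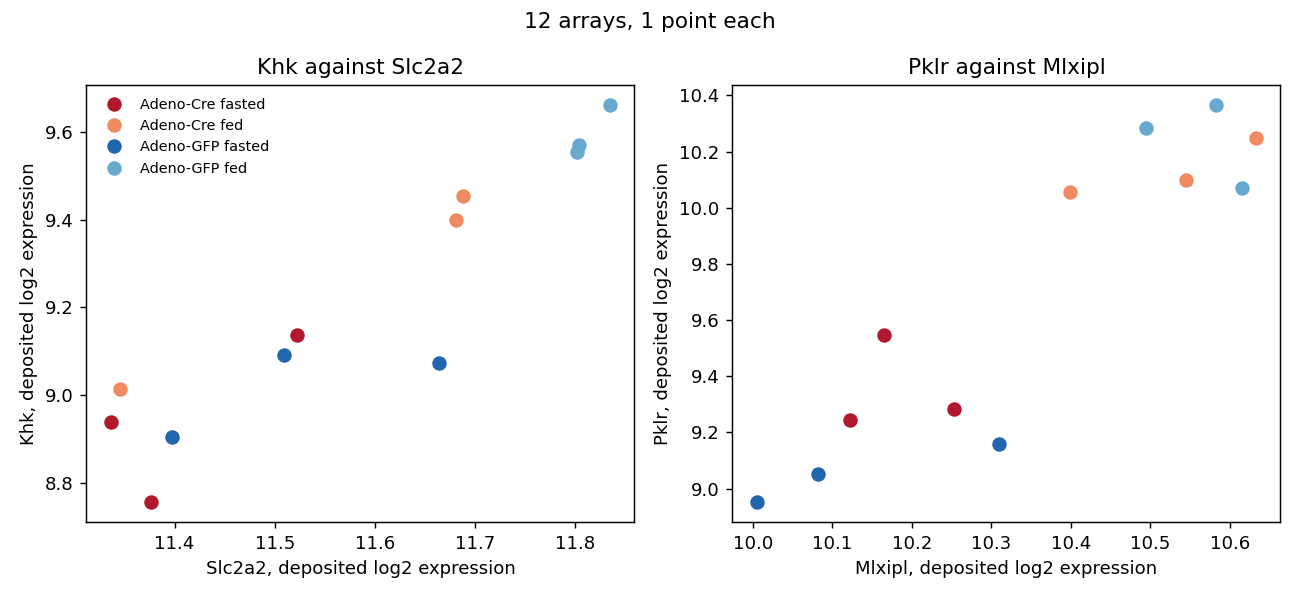
Log2 values of gene pairs in the 12 livers, one point per liver, coloured by group; the axes are deposited log2 levels. Slc2a2 and Khk (correlation 0.859 within groups) spread together inside groups, whereas Pklr and Mlxipl (0.363 within groups) separate mainly into fasted and fed livers.

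For each gene, the gene outside the set with the most similar pattern over the 12 livers was found by Pearson correlation, as a description. Pklr was followed most closely by Cyb5b (0.986), Khk by Nit2 (0.973), Mlxipl by Cyp2c29 (0.968) and Gckr by Wdr41 (0.964). Tpi1 was followed by Antxr2 (0.962), Slc2a2 by Rasgef1c (0.917) and Pfkl by Sgce (0.904). Cyb5b encodes a cytochrome b5 of the outer mitochondrial membrane, and its fasting change was -0.57 after Adeno-Cre and -1.05 after Adeno-GFP. Cyp2c29, a cytochrome P450, had differences of -0.34 after Adeno-Cre and -0.60 after Adeno-GFP.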

How the data were processed

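Liver RNA of 12 mice (200 ng each, RNA integrity number above 7, per the labels' protocols) was hybridised to Affymetrix arrays. The deposited values are log2 expression levels per probe set made with RMA, per the submitters' processing notes. RMA equalises the distributions of arrays, so a shift common to all genes would be lost, and it compresses differences of dim probe sets. Neither the version of RMA nor a genome build is given in the sources used here. The files give no detection calls or scan batches, and the number of arrays limits the precision.

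The platform annotation named exactly 1 gene for 23521 of 41345 probe sets, several for 1814, and did not list 16010. The probe set with the highest mean over the arrays stood for each of 22180 genes. All 12 arrays were fitted together in limma 3.58.1 under R 4.3.3, as 4 group means moderated by eBayes, and p-values were adjusted by Benjamini-Hochberg over all genes of a contrast at a threshold of 0.05. Nothing says that the mice were littermates or handled together. The fit was tested on simulated data.

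The 8 genes, the lists, the tests and the alternatives were chosen with earlier results of these data known. Candidates to be named besides the 8 genes were a fixed set (Hk2, Pkm, Gapdh, Ldha, Txnip, Pdk4, Tigar, Pck1, G6pc, Ppargc1a, Srebf1 and Fasn among those measured), up to 4 genes of each list with the smallest p among those called in a contrast, and the gene most correlated with each member. Not every candidate is described above, among them Hk2, Pkm and Slc16a7. Promoter windows are RefSeq sequences of GRCm38.p6, found for all 8 genes by symbol. Figures were drawn with matplotlib 3.10.9 in Python 3.11.15.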

Additional observations from a re-analysis of the deposited data

Results flagged for a closer look

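In Fasn and Srebf1, 2 genes outside the set, every Adeno-Cre liver was above every Adeno-GFP liver when fasted and below every one when fed. The injection difference thus had opposite signs in the diets. The transporter gene Slc2a9 crossed too, at 8.14 to 8.22 (Adeno-Cre) against 8.07 to 8.11 (Adeno-GFP) fasted and 7.77 to 8.10 against 8.14 to 8.24 fed. Of all genes, 9.96% were above without overlap in fasted and 11.5% below in fed livers. How many did both was not counted. Fasn, the fatty acid synthase gene, was at 8.14, 8.24 and 8.01 in Adeno-Cre fasted and 7.60, 7.99 and 7.84 in Adeno-GFP fasted livers, and at 8.96, 8.93 and 8.73 in Adeno-Cre fed and 9.10, 9.51 and 9.78 in Adeno-GFP fed livers. Srebf1, the SREBP-1 gene, was at 7.28, 7.14 and 7.24 in Adeno-Cre fasted and 7.03, 6.80 and 7.09 in Adeno-GFP fasted livers, and at 7.46, 7.46 and 7.45 in Adeno-Cre fed and 7.81, 7.98 and 8.16 in Adeno-GFP fed livers. The difference between the diets was 0.912 for Fasn (limma adjusted p = 0.538) and 0.771 for Srebf1 (adjusted p = 0.294), so neither passed the test of that difference.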

How the results depend on the processing

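Pklr passed the test in all 3 fasting contrasts under every alternative run, with a change of -0.871 to -0.719 after Adeno-Cre and -1.271 to -1.123 after Adeno-GFP without each array. The averaged fasting calls of Khk, Mlxipl and Tpi1 also passed under every alternative. The number of the 7 genes called fell to 1 for fasting after Adeno-Cre with only the groups compared, and to 1 for fasting after each injection with all probe sets tested, since more tests were adjusted for. It rose to 1 (Gckr) for Adeno-Cre averaged over diets with dim probe sets left out and with a trended and robust prior, and to 1 in fed livers with that prior (Gckr, adjusted p = 0.0389). Without each array the count was 1 to 2 for fasting after Adeno-Cre, 1 to 3 after Adeno-GFP and 4 to 5 averaged. Leaving out dim probe sets brought Mlxipl after Adeno-Cre, Tpi1 after Adeno-GFP and averaged Slc2a2 past the threshold (adjusted p = 0.0343, 0.0376 and 0.0435), and so did the trended and robust prior (0.0236, 0.0248 and 0.0337).

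Correlations of deviations from the group means were -0.0905 to 0.147 for 18 same-numbered pairs and -0.179 to 0.129 for 36 others. Of 12 arrays, 6 correlated best with an array of their own number. These values do not settle whether the replicate numbers pair the livers. With the replicate block, 2 of 7 genes were called for fasting after Adeno-Cre, 2 after Adeno-GFP (Mlxipl adjusted p = 0.0521), 4 averaged and 0 in the other contrasts, and 587 genes in all were called after Adeno-GFP, against 682 without it.

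Several uncalled changes near 0 turned sign. Mlxipl with Adeno-Cre averaged was -0.0055 after quantile normalisation again. Without each array, the ranges were -0.0041 to 0.063 for Gckr with fasting after Adeno-GFP and -0.127 to 0.0755 for Pfkl with fasting after Adeno-Cre. For Adeno-Cre they were -0.176 to 0.0145 for Khk, -0.0158 to 0.136 for Mlxipl in fasted livers, -0.0924 to 0.0245 for Mlxipl, -0.0313 to 0.0623 for Pfkl and -0.0578 to 0.0059 for Tpi1 in fed livers, and -0.0273 to 0.0486 for Mlxipl and -0.0022 to 0.0536 for Tpi1 averaged. Causes were not tested. With 3 livers a group, small changes such as those of Slc2a2 and Gckr lie near what the arrays can resolve.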
